A study of Danio rerio with 16 samples.

Results

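The genes described here are those whose RNA was higher with cortisol than with vehicle in zebrafish larvae of both genotypes, in klf9-/- larvae, which carry a mutation of the transcription factor gene klf9, and in wild type (WT) larvae. They were chosen from the measured values. A gene had to average 20 or more normalized counts over the 16 samples, both cortisol samples above both vehicle samples in each genotype on each of the 2 RNA preparation days, and a log2 difference between cortisol and vehicle of at least 0.4 in each genotype. Of 22994 genes measured, 18569 had the required level, 586 of these were separated by cortisol in each genotype on each day, and 242 also met the limit on the difference. Their cortisol differences, which were used to choose them, are therefore given as a description. The differences that the choice did not use are klf9-/- against WT over both treatments, and day 2 against day 1. The choice did favour genes with little spread within days, which enters the tests of these differences too.

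RNA of whole larvae at 5 dpf was sequenced after poly(A) selection, with 4 samples of 10 larvae in each of 4 conditions. These were klf9-/- larvae in 1 µM cortisol, klf9-/- larvae in the DMSO vehicle, WT larvae in 1 µM cortisol, and WT larvae in the vehicle, with treatment starting at about 4 hpf. All were of the AB strain. The klf9-/- fish carried a CRISPR deletion of 2 bp that shifts the reading frame in exon 1, the line descended from 1 female founder, and the parents were homozygous mutants and their WT siblings. All larvae of a condition shared 1 dish, so errors and p-values cover the spread between samples of that dish and not between dishes. Replicates 3 and 4 were extracted on day 2, with each sample homogenized as soon as it was in lysis buffer. Replicates 1 and 2 had been extracted on day 1, with the buffer in all 8 samples before the first was homogenized.

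Cortisol is the main stress steroid of teleost fish. It binds the glucocorticoid receptor, which enters the nucleus and raises or lowers transcription of many genes, among them genes for glucose release, ion uptake across the skin, and restraint of inflammation. klf9 encodes a zinc finger factor of the Krüppel-like family whose own transcription the receptor activates. In whole larvae, more cells of a type and more RNA per cell cannot be told apart.

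The klf9 transcript itself followed the labels. KLF9 had 106, 134, 136 and 111 normalized counts in klf9-/- larvae with cortisol, against 330, 511, 354 and 340 in WT larvae with cortisol. With vehicle it had 135, 78, 100 and 111 in klf9-/- larvae, against 274, 250, 243 and 165 in WT larvae. No klf9-/- sample reached the lowest WT sample, and the difference over both treatments was -1.39 ± 0.13 on the log2 scale (SE, limma, adjusted p = 1.44e-05). KLF9 was not among the 242 genes: its cortisol difference was 0.22 ± 0.18 in klf9-/- larvae and 0.72 ± 0.18 in WT larvae (SE), and its cortisol samples exceeded its vehicle samples on 0 of the 2 days in klf9-/- larvae.

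Across the 242 genes, the median log2 difference between cortisol and vehicle was 0.56 in klf9-/- larvae (0.40 to 1.36), a 1.47-fold higher level, and 0.67 in WT larvae (0.40 to 2.56), a 1.59-fold higher level. The mean level of the genes ran from 20.2 to 27296 normalized counts with a median of 179, and the highest was that of EEF1G, a subunit of translation elongation factor 1. Most differences were modest: 6 genes reached a log2 difference of 1 in klf9-/- larvae, 43 did in WT larvae, and 5 did in both. In limma's test over all 21468 genes tested, 125 of the 242 passed an adjusted p of 0.05 in klf9-/- larvae, where 2.59% of all genes were called higher, and 210 passed in WT larvae, where 4.85% of all genes were. Nothing is read from these 2 counts, since the same differences chose the genes. In klf9-/- larvae the count was 0 without any of klf9-/- vehicle replicates 1, 2 and 3 or klf9-/- cortisol replicates 1 and 3, it was 49 without klf9-/- cortisol replicate 2, and it was 208 without WT vehicle replicate 1. In WT larvae it was 73 and 84 without WT cortisol replicates 1 and 2, and 97 and 127 without WT vehicle replicates 1 and 4. Counts over all genes in these refits are not given here, so nothing particular to the 242 genes is read from them.

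**Figure D1:**
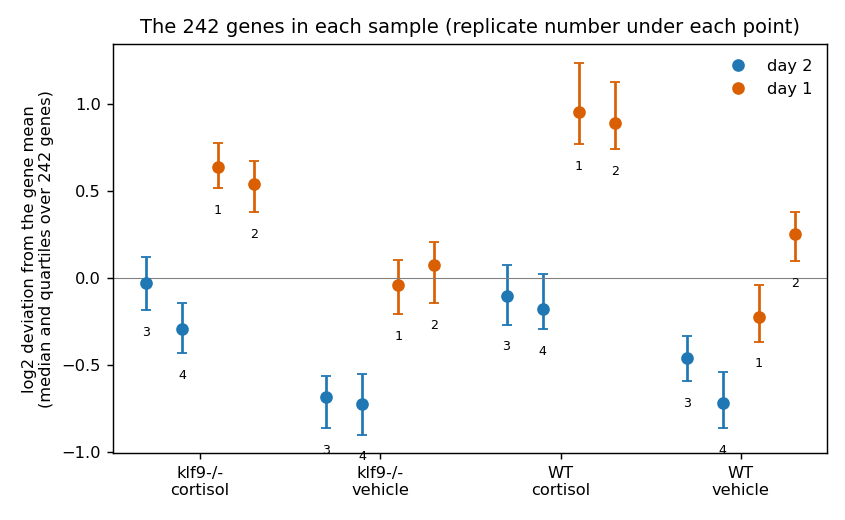
Median and quartiles, over the 242 genes, of the log2 deviation of each sample from the mean of the gene, with replicates 3 and 4 (day 2) left of replicates 1 and 2 (day 1) in each condition. On day 2, the medians with cortisol were between -0.29 and -0.03 in klf9-/- larvae and between -0.17 and -0.10 in WT larvae, and all day 1 medians with cortisol were at 0.54 or above.

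The samples did not all keep the conditions apart once the days were pooled. In klf9-/- larvae the median deviation of the 242 genes from their means was 0.64, 0.54, -0.03 and -0.29 in cortisol replicates 1 to 4, against -0.04, 0.08, -0.68 and -0.72 in vehicle replicates 1 to 4. In WT larvae it was 0.95, 0.89, -0.10 and -0.17 with cortisol, against -0.23, 0.25, -0.46 and -0.72 with vehicle. Within each day cortisol samples were higher, as the rule requires, but the cortisol samples of day 2 lay below the highest vehicle samples of day 1. All 4 cortisol samples exceeded all 4 vehicle samples for 15 of the 242 genes in klf9-/- larvae, for 29 in WT larvae, and for 6 in both. Over all genes tested these shares were 1.29%, 2.02% and 0.0932%, and nothing is read from the counts, since the rule used the same values. WT vehicle replicate 2 stood apart from replicate 1 of the same day, by 0.25 against -0.23. Without replicate 2 the rule found 314 genes, among them all 242, but separation is easier to meet with a sample left out.

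The number of genes found changed when single samples were left out. Leaving out a sample also makes separation easier to meet, since fewer samples of that condition and day have to be apart. A higher count is therefore partly built in. It was 400 without WT vehicle replicate 3, 398 without klf9-/- cortisol replicate 4, 371 without WT cortisol replicate 4, 161 without WT cortisol replicate 1 and 147 without klf9-/- cortisol replicate 1. Genes lay close on either side of the limit of 0.4. Just inside were FAM83G (0.401 in klf9-/- larvae and 0.430 in WT larvae), CHMP1A (0.481 and 0.402, in the same order), which takes part in sorting into multivesicular bodies, and apoa4b.3 (0.403 and 0.563), an apolipoprotein A-IV gene. Just outside were slc51a (0.3999 and 0.416), which encodes a subunit of a bile acid and steroid transporter, PRRG4 (0.3996 and 0.529) and FUCA2 (0.518 and 0.399), an alpha-fucosidase.

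Of the 242 genes, 7 had no symbol, 54 had only a clone-based name, and 18 carried a symbol that several zebrafish genes share, such as 3 RHCG, 2 KCNJ1 and 2 MFAP4 genes. Reads of such near copies, and of the olfactomedin 4-like genes, may have been divided between copies by the counting, so their single values are uncertain. By known function, 90 of the genes fell into 9 groups, which were formed after the values had been seen, and 152 fell into none. The 20 genes of immune cells, 19 of surface epithelium, 13 of ion transport and 10 of interferon and NF-kB signaling were the largest groups. The others were 9 genes grouped as glucose and lipid metabolism, 7 redox enzymes, 6 lysosomal hydrolases, 3 genes of complement and the acute phase, and 3 of survival and stress. The glucose and lipid group was drawn broadly and also held genes of other functions, which are named below.

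The textbook targets of the receptor contributed 3 genes. Of 46 glucocorticoid target genes tested, 3 passed the test as higher with cortisol in klf9-/- larvae and 9 in WT larvae, and the list medians were 0.12 and 0.14, against -0.01 and -0.03 over all genes tested. Those that passed in klf9-/- larvae were g6pc1a.1, IGFBP1 and igfbp1b, and those that met the rule were nfkbiaa, g6pc1a.1 and IGFBP1. igfbp1b, named after its values were seen, had 0.78 ± 0.15 in klf9-/- larvae and 0.51 ± 0.15 in WT larvae (SE), but its WT samples were separated by cortisol on only 1 day. nfkbiaa, which encodes an inhibitor that holds NF-kB in the cytoplasm, had 436, 406, 232 and 220 normalized counts in klf9-/- larvae with cortisol, against 296, 222, 162 and 164 with vehicle. WT larvae had 614, 638, 244 and 220 with cortisol, against 175, 307, 155 and 138 with vehicle. On each day the cortisol samples were higher, whereas over both days the treatments overlapped in each genotype, and the log2 differences were 0.59 ± 0.17 in klf9-/- larvae and 1.05 ± 0.17 in WT larvae (SE).

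g6pc1a.1, the glucose-6-phosphatase of glucose release, had 226, 224, 168 and 194 normalized counts in klf9-/- larvae with cortisol, against 206, 140, 88 and 114 with vehicle. In WT larvae it had 243, 316, 170 and 166 with cortisol, against 176, 214, 138 and 86 with vehicle. Its differences were close to equal, at 0.63 ± 0.16 in klf9-/- larvae and 0.57 ± 0.16 in WT larvae (SE). IGFBP1, a circulating protein that binds insulin-like growth factors, had 455, 378, 426 and 348 normalized counts in klf9-/- larvae with cortisol, against 321, 246, 268 and 256 with vehicle, and no sample of one treatment overlapped the other. The WT samples had 476, 641, 458 and 376 with cortisol, against 332, 385, 250 and 316 with vehicle, where replicate 2 with vehicle exceeded replicate 4 with cortisol. Its differences were 0.56 ± 0.13 and 0.59 ± 0.13, in klf9-/- and WT larvae in that order, and it moved little with the day (-0.24 ± 0.09 on day 2 against day 1). FKBP5, a cochaperone of the receptor and a standard readout of its activity, was not among the genes: its samples were separated by cortisol on 0 days in either genotype, with differences of 0.26 ± 0.40 in klf9-/- larvae and 0.61 ± 0.40 in WT larvae (SE).

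Averaged over the days, the genes of the glucose and lipid group had nearly the same difference in both genotypes. The 9 genes had medians of 0.54 in klf9-/- larvae and 0.55 in WT larvae. The medians were 0.62 and 0.56 on day 2, and 0.41 and 0.63 on day 1, in the same order. fbp1a, a fructose-bisphosphatase of gluconeogenesis, had 1092, 885, 618 and 596 normalized counts in klf9-/- larvae with cortisol, against 660, 737, 402 and 412 with vehicle. Among WT samples the counts were 1048, 924, 476 and 519 with cortisol, against 522, 660, 464 and 410 with vehicle, so that the treatments nearly met on day 2. The group also held cpt1a2b, of the enzyme family that admits fatty acids to mitochondria (0.69 in klf9-/- larvae and 0.52 in WT larvae), the apolipoprotein genes apom and apoa4b.3, and NR1I2, a nuclear receptor for foreign compounds (0.48 and 0.42, in the same order). HGD, an enzyme of tyrosine breakdown that was placed in the group too, had 0.46 and 0.55, the latter being the WT median of the group. IGFBP1 also belonged to it. Of 20 genes on a list of gluconeogenesis and fuel switching, 2 passed in klf9-/- larvae and 3 in WT larvae, and the list medians were 0.02 and -0.01.

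Ion transport genes formed the group with the largest median in klf9-/- larvae among those of 5 or more genes, 0.69 against 0.58 in WT larvae. Many are known from the ionocytes of the larval skin, which take up salts and excrete acid and ammonia. The 3 genes with the symbol RHCG, which encode ammonia channels, all met the rule. The RHCG gene with the largest difference (ENSDARG00000003203) had 1043, 1125, 754 and 586 normalized counts in klf9-/- larvae with cortisol, against 772, 480, 239 and 373 with vehicle. WT larvae had 1473, 1494, 674 and 744 with cortisol, against 544, 786, 508 and 276 with vehicle. Its differences were 0.99 ± 0.20 in klf9-/- larvae and 1.05 ± 0.20 in WT larvae (SE). atp1a1a.2, a sodium pump subunit, had 0.72 ± 0.14 in klf9-/- larvae and 0.48 ± 0.14 in WT larvae (SE), and foxi3a and foxi3b, which specify ionocytes, had 0.57 and 0.44 in klf9-/- larvae and 0.52 and 0.43 in WT larvae. Also in the group were a pair of KCNJ1 potassium channel genes, the carbonic anhydrase gene ca15c, the sodium pump regulator fxyd11, the water channel AQP3, the urea transporter SLC14A2 and the chloride channel clcn2c. Of 30 ionocyte marker genes tested, 6 passed as higher in klf9-/- larvae and 6 in WT larvae, where 2 others passed as lower, and the difference was positive for 21 and 19 of the 30, in the same order. Of the 24 markers outside the 242 genes, 2 passed as higher in each genotype. The summed level of the whole marker list overlapped between treatments, at 39632 to 44304 normalized counts in klf9-/- larvae with cortisol, against 36567 to 46133 with vehicle, and at 42564 to 45898 in WT larvae with cortisol, against 36645 to 45993 with vehicle.

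Genes of the surface epithelium had medians of 0.60 in klf9-/- larvae and 0.62 in WT larvae. They included the tight junction genes cldn7b, cldn8.2, cldn23.1 and oclna, the gap junction gene gjb10, the membrane proteases tmprss13a and st14b together with their inhibitors spint1a, spint1b and spint2, the keratins krt98 and krt99, and the cornified envelope gene scel. In this group tmprss13a had the largest mean difference, 0.94 in klf9-/- larvae and 1.06 in WT larvae. BARX2, a homeobox gene, showed the largest excess of klf9-/- over WT of all 242 genes, 0.38 ± 0.44 (SE), which is within its error. Of 27 epidermis markers tested, 6 passed as higher in klf9-/- larvae and 4 in WT larvae, with medians of 0.50 and 0.34. The summed level of these markers was 510432 to 683317 normalized counts in klf9-/- larvae with cortisol, against 394622 to 520147 with vehicle, and 414874 to 613426 in WT larvae with cortisol, against 396731 to 505456 with vehicle. In WT larvae its mean with cortisol was 415933 on day 2, below the 458999 with vehicle, and 613275 on day 1, above the 443354 with vehicle. The 242 genes cannot be set against this, since the rule itself required them to be higher with cortisol on both days. The part of epidermal cell number or RNA in these differences was not tested.

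Smaller groups also had similar differences in both genotypes when averaged over the days. By day, the median klf9-/- minus WT value was 0.11 on day 2 and -0.17 on day 1 for redox genes. It was 0.23 and -0.30 for lysosomal hydrolases, 0.23 and -0.38 for survival and stress, and 0.13 and -0.17 for complement and the acute phase. The redox genes had medians of 0.56 in klf9-/- larvae and 0.67 in WT larvae and included the glutathione peroxidases gpx1a and gpx1b, the glutathione transferases gsto2 and gstt1b, and HMOX1, which degrades heme (0.58 and 0.74, in the same order). The lysosomal hydrolases, among them SMPD1, which degrades sphingomyelin, and the phosphatase ACP2, had medians of 0.56 and 0.57. The survival factors mcl1a and mcl1b had 0.64 and 0.45 in klf9-/- larvae and 0.71 and 0.51 in WT larvae. cfd, the complement factor D protease, had 0.64 ± 0.16 and 0.76 ± 0.16, and c6.2, a terminal complement component, 0.50 ± 0.14 and 0.56 ± 0.14 (SE), in klf9-/- and WT larvae in that order.

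Immune cell genes had the widest gap between the genotypes. Their median over 20 genes was 0.58 in klf9-/- larvae and 1.16 in WT larvae, and 17 of them had the smaller difference in klf9-/- larvae. An MFAP4 gene (ENSDARG00000088745), of a family expressed in zebrafish macrophages, had 97, 144, 89 and 51 normalized counts in klf9-/- larvae with cortisol, against 94, 90, 38 and 38 with vehicle. In WT larvae it had 520, 391, 205 and 186 with cortisol, against 55, 85, 58 and 52 with vehicle. In WT larvae the lowest cortisol sample lay above the highest vehicle sample, whereas in klf9-/- larvae the treatments overlapped. The differences were 0.59 ± 0.22 in klf9-/- larvae and 2.27 ± 0.22 in WT larvae (SE).

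lygl1, a lysozyme g-like gene, showed the same arrangement. It had 156, 140, 80 and 75 normalized counts in klf9-/- larvae with cortisol, against 85, 88, 57 and 65 with vehicle, and 536, 475, 204 and 186 in WT larvae with cortisol, against 68, 103, 90 and 64 with vehicle. MMP9, a gelatinase of neutrophils and other cells, had differences of 0.60 ± 0.22 in klf9-/- larvae and 1.44 ± 0.22 in WT larvae, CORO1A, an actin regulator of leukocytes, 0.81 ± 0.14 and 1.28 ± 0.14, and lyz, the lysozyme of granulocytes, 0.49 ± 0.21 and 0.97 ± 0.21 (SE, klf9-/- and then WT larvae). cxcl18a.1, a chemokine, did not have a gap: with a mean of only 24.1 normalized counts over all samples, its differences were 1.36 ± 0.29 in klf9-/- larvae, the largest there, and 1.29 ± 0.29 in WT larvae (SE). Another MFAP4 gene (ENSDARG00000038683) had 1.04 ± 0.25 and 1.2 ± 0.25, and csf1ra, a growth factor receptor of macrophages, 0.69 and 0.49, in the same order.

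Marker lists of these cells were examined with and without the genes that met the rule. Of 27 macrophage markers tested, 5 passed as higher with cortisol in klf9-/- larvae and 21 in WT larvae. Of the 22 outside the 242 genes, 2 and 16 passed, with median differences of 0.32 and 1.06. Of 11 neutrophil markers 2 passed in klf9-/- larvae and 4 in WT larvae, and of the 9 outside the 242 genes 2 passed in each genotype, with medians of 0.38 and 0.52. No marker on either list was at 0 in every sample. Without the 242 genes, the macrophage list summed to 11713 to 16693 normalized counts in klf9-/- larvae with cortisol, against 7075 to 15393 with vehicle, and to 12387 to 19014 in WT larvae with cortisol, against 9244 to 17069 with vehicle. The neutrophil list without them summed to 784 to 1899 in klf9-/- larvae with cortisol, against 707 to 1302 with vehicle, and to 857 to 1894 in WT larvae with cortisol, against 661 to 1144 with vehicle. The treatments thus overlapped for both lists over the 2 days, but within each day the means were higher with cortisol. The macrophage means on day 2 were 11858 against 7696 in klf9-/- larvae and 12923 against 9913 in WT larvae. On day 1 they were 16187 against 13442 and 18731 against 15128. The neutrophil means on day 2 were 870 against 726 and 911 against 713, and on day 1 1823 against 1163 and 1829 against 1019, in the same order. The part of macrophages and neutrophils in the immune genes' differences was not tested.

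The interferon and NF-kB genes had medians of 0.55 in klf9-/- larvae and 0.90 in WT larvae. gbp2, an interferon-induced guanylate-binding protein gene, had 60, 41, 24 and 20 normalized counts in klf9-/- larvae with cortisol, against 32, 22, 16 and 11 with vehicle. The WT samples had 92, 94, 56 and 54 with cortisol, against 23, 38, 26 and 18 with vehicle, with no overlap there. STAT4, a transcription factor of cytokine signaling, had 0.51 ± 0.12 in klf9-/- larvae and 0.93 ± 0.12 in WT larvae (SE). Of 26 interferon-stimulated genes tested, 1 passed as higher in klf9-/- larvae and 20 in WT larvae, with medians of 0.39 and 1.18, and only STAT4 met the rule in both genotypes.

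**Figure D2:**
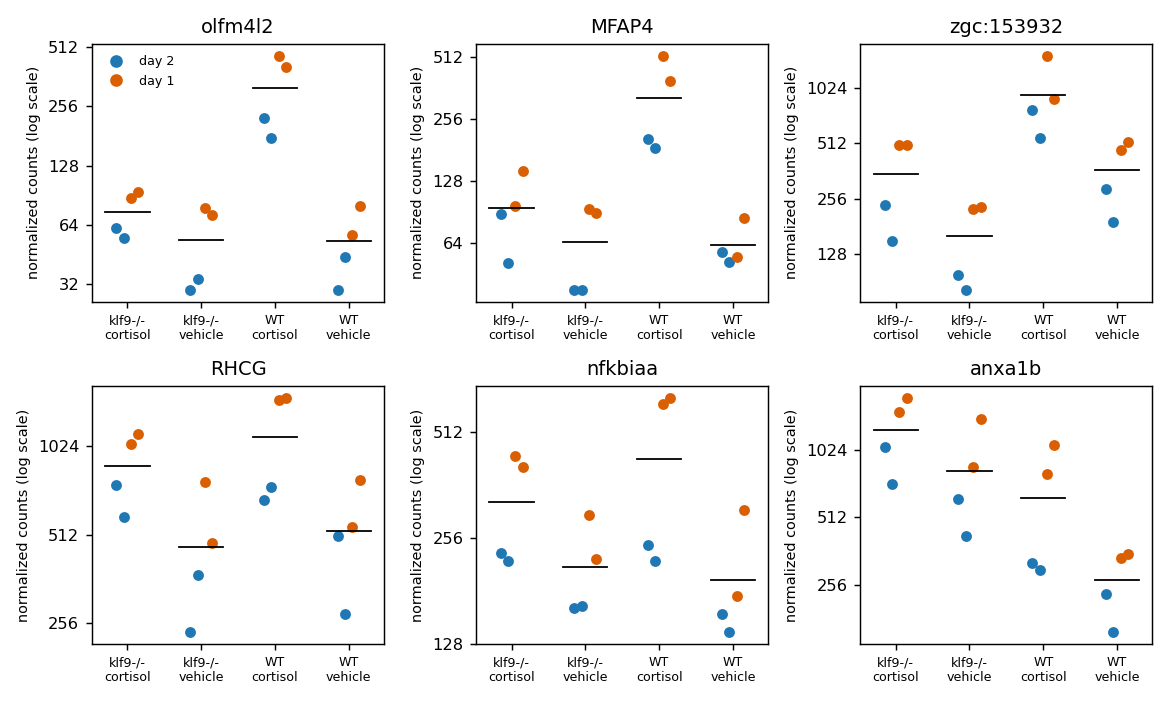
Normalized counts (log axis) of 6 of the genes in the 16 samples, with a bar at the mean of each condition. MFAP4 is ENSDARG00000088745 and RHCG is ENSDARG00000003203. For olfm4l2 and MFAP4 the 4 WT samples with cortisol lie above all others, zgc:153932 is lower and anxa1b higher in klf9-/- than in WT larvae with either treatment, and RHCG and nfkbiaa show the split by day in every condition.

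The largest mean differences belonged to genes without a well described function in fish. si:dkey-97i18.5 led, with 175, 163, 153 and 140 normalized counts in klf9-/- larvae with cortisol, against 162, 128, 64 and 65 with vehicle. Among WT samples the counts were 1060, 1378, 546 and 358 with cortisol, against 132, 232, 80 and 96 with vehicle. olfm4l2 and olmf4l1 followed, both named after olfactomedin 4, in mammals a secreted protein of neutrophil granules and gut epithelium. olfm4l2 had 88, 94, 62 and 55 normalized counts in klf9-/- larvae with cortisol, against 78, 72, 30 and 34 with vehicle. WT larvae had 462, 404, 223 and 176 with cortisol, against 57, 80, 30 and 44 with vehicle, a difference of 2.56 ± 0.15 that compares with 0.57 ± 0.15 in klf9-/- larvae (SE). olmf4l1 ran almost in parallel, with differences of 0.57 ± 0.22 in klf9-/- larvae and 2.55 ± 0.22 in WT larvae (SE).

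Other leading genes had less of a gap or none. si:ch211-207n23.2 had 0.83 ± 0.29 in klf9-/- larvae and 1.86 ± 0.29 in WT larvae, and tppp, a tubulin-binding protein gene, 0.62 ± 0.21 and 1.73 ± 0.21 (SE, in the same order). zgc:153932 had 1.1 ± 0.19 in klf9-/- larvae and 1.36 ± 0.19 in WT larvae, zgc:158868 had 1.11 ± 0.27 and 1.28 ± 0.27, and ENSDARG00000105829 had 1.2 ± 0.26 and 1.17 ± 0.26. klf6b, of the same factor family as klf9, had 0.48 ± 0.19 in klf9-/- larvae and 1.09 ± 0.19 in WT larvae (SE), at 12 to 62 normalized counts.

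The size of the cortisol difference was compared between the genotypes gene by gene. The klf9-/- difference minus the WT difference had a median of -0.09, with quartiles of -0.28 and 0.02, and ran from -1.99 to 0.38. For 154 genes the 2 differences lay within 0.2 of each other, for 22 the klf9-/- difference was smaller by more than 0.5, and for 0 it was larger by more than 0.5. The rule asked for at least 0.4 in both genotypes, which limits such gaps, and these counts were not made over all genes. In limma's test of the difference between the genotypes, 4 of the 242 genes passed with a smaller difference in klf9-/- larvae, where 0.172% of all genes did, and 0 with a larger one, where 0 of all genes did. At an unadjusted p under 0.05 the counts were 25 and 0, where 2.69% and 2.95% of all genes passed. These counts rest on the differences that chose the genes, so nothing is read from them and the values that follow are a description. The 4 genes were si:dkey-97i18.5 (-1.85 ± 0.32), olfm4l2 (-1.99 ± 0.22), olmf4l1 (-1.98 ± 0.31) and MFAP4 ENSDARG00000088745 (-1.68 ± 0.31, SE). Their number was 2 without any one of WT cortisol replicates 1, 2 and 3, klf9-/- vehicle replicates 1 and 3, and klf9-/- cortisol replicate 1.

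**Figure D3:**
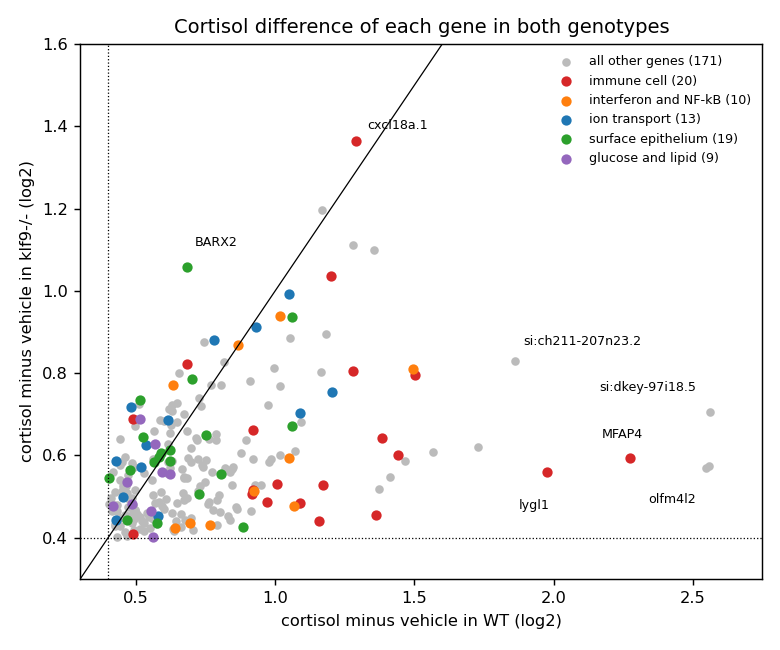
Log2 difference between cortisol and vehicle in klf9-/- larvae (vertical axis) against that in WT larvae (horizontal axis) for each of the 242 genes, with the line of equal values and dotted lines at the limit of 0.4. Ion transport and surface epithelium genes lie on both sides of the line. Most immune cell genes lie to its right, where the difference was larger in WT larvae, as do 165 of the 242 genes. Over all genes tested, 47.5% had a klf9-/- difference below the WT difference.

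The order of the genotypes turned with the preparation day for most of the 242 genes. The rule used the samples of each day, and no share over all genes stands beside these counts, so they are a description. On day 2 the median difference was 0.53 in klf9-/- larvae and 0.43 in WT larvae, and 161 of the 242 genes had the larger difference in klf9-/- larvae. On day 1 it was 0.57 in klf9-/- larvae and 0.90 in WT larvae, and 221 genes had the smaller difference in klf9-/- larvae. In klf9-/- larvae the size thus changed little with the day (115 genes larger on day 2 and 127 on day 1), whereas in WT larvae 29 genes were larger on day 2 and 213 on day 1. For 73 genes the difference was smaller in klf9-/- larvae on both days. The immune cell genes kept the order, with a median klf9-/- minus WT value of -0.33 on day 2 and -0.78 on day 1, and 14 of the 20 were smaller in klf9-/- larvae on both days. The interferon and NF-kB genes had -0.0011 on day 2 and -0.48 on day 1. Ion transport genes had 0.22 on day 2 and -0.17 on day 1, and surface epithelium genes 0.26 and -0.33. The 4 genes named above had values from -1.58 to -1.0 on day 2 and from -2.56 to -2.36 on day 1.

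**Figure D4:**
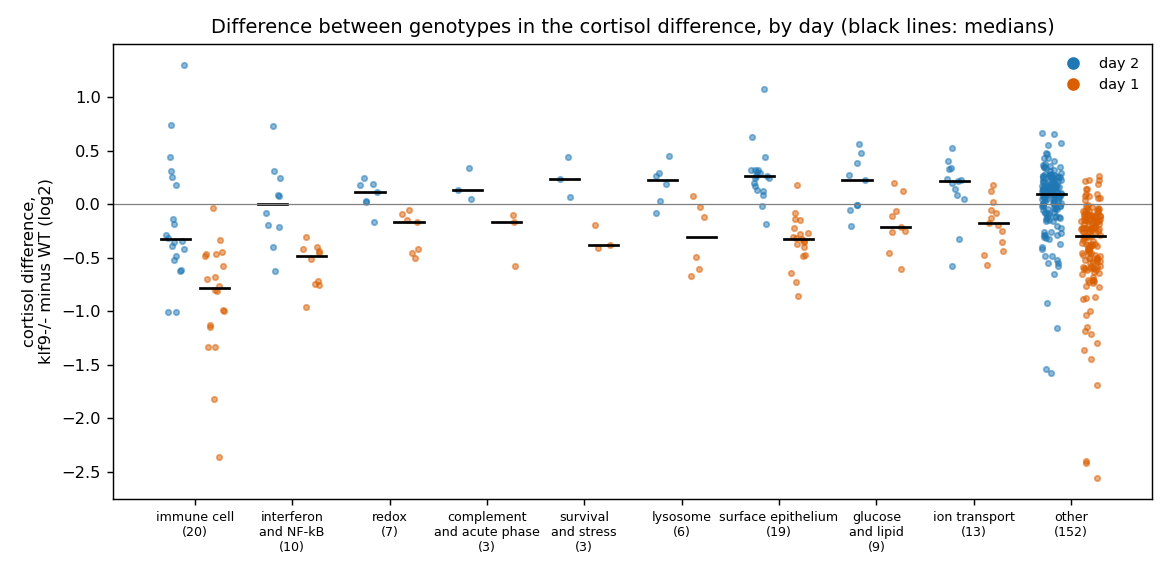
The klf9-/- minus WT value of the log2 cortisol difference for each gene, by function group, on day 2 and day 1, with a black line at each median. The day 1 medians are all below 0, and on day 2 those of the immune cell genes (-0.33) and of the interferon and NF-kB genes (-0.0011) are below 0 while those of the other groups are above it.

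Next, the level of the genes was compared between genotypes over both treatments. The rule did not use this difference, but it favoured genes with little spread within days. Such genes pass a test more easily, so the counts are not like for like with all genes. Of the 242 genes, 38 were lower in klf9-/- than in WT larvae in limma's test, where 2.86% of all genes were, and 4 were higher, where 1.79% of all genes were. The median difference over the 242 was -0.12, against 0.01 over all genes tested. It was -0.18 with cortisol and -0.06 with vehicle. All 38 genes were lower in klf9-/- larvae on each day and with each treatment. Their medians were -0.83 with cortisol and -0.41 with vehicle, and for 30 of them the gap was larger with cortisol. Among all 242 genes, 165 had the larger cortisol difference in WT larvae. The klf9-/- difference was below the WT difference for 47.5% of all genes tested. The call picked the 38 by their mean gap, and a change of the gap with cortisol is built from the differences that chose the genes. Nothing is therefore read from these values. Of the 242 genes, 13 had all 4 klf9-/- samples with cortisol below all 4 WT samples with cortisol, where 2.46% of all genes did, and 0 had all 4 klf9-/- samples with vehicle below all 4 WT samples with vehicle, where 2.06% of all genes did. Without klf9-/- cortisol replicate 2, 25 of the 242 genes were called lower. Without preparation day in the model the counts were 2 lower and 0 higher. The count of genes called higher was 2 without any one of WT cortisol replicates 3 and 4, klf9-/- vehicle replicates 2 and 3, and klf9-/- cortisol replicate 3. With each day taken alone, 18 genes were lower and 3 higher on day 2, and 20 lower and 1 higher on day 1. Counts over all genes in these changed fits are not given here, so nothing particular to the 242 genes is read from them.

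zgc:153932 had the largest fall, by 1.37 ± 0.13 (SE, limma, adjusted p = 2.52e-05). It had 502, 500, 238 and 150 normalized counts in klf9-/- larvae with cortisol, against 1528, 895, 774 and 544 in WT larvae with cortisol. With vehicle it had 226, 232, 99 and 82 in klf9-/- larvae, against 469, 518, 288 and 192 in WT larvae. The genotypes were apart with cortisol on all samples, and with vehicle within each day. si:dkey-97i18.5 fell by 1.29 ± 0.16 (SE, limma, adjusted p = 0.000235), with a gap of -2.22 with cortisol and -0.36 with vehicle.

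apoa4b.3, an apolipoprotein gene of the gut and yolk layer, fell by 1.07 ± 0.13 (SE, limma, adjusted p = 0.000159). It had 321, 256, 191 and 254 normalized counts in klf9-/- larvae with cortisol, against 782, 895, 382 and 360 in WT larvae with cortisol, and the genotypes did not overlap. With vehicle it had 255, 250, 124 and 165 in klf9-/- larvae, against 666, 565, 266 and 202 in WT larvae. Its gap was thus present with either treatment, while its cortisol difference was 0.40 in klf9-/- larvae and 0.56 in WT larvae.

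anxa1b, which encodes an annexin A1 of the skin, went the other way. It had 1517, 1748, 1054 and 722 normalized counts in klf9-/- larvae with cortisol, against 800, 1080, 320 and 296 in WT larvae with cortisol. With vehicle it had 856, 1400, 619 and 422 in klf9-/- larvae, against 338, 350, 232 and 157 in WT larvae, and there every klf9-/- sample was above every WT sample. It was 1.35 ± 0.14 higher over both treatments (SE, limma, adjusted p = 4.58e-05). The other genes called higher were DERL3, of the machinery that clears misfolded proteins from the endoplasmic reticulum (0.39 ± 0.08, limma, adjusted p = 0.011), clcn2c (0.32 ± 0.08, limma, adjusted p = 0.0436) and gstt1b, the last chosen after its value was seen (0.29).

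Of the 38 genes called lower, 26 belonged to no function group, as did 152 of all 242 genes. The share called lower was 15.7% over the 242 genes and 2.86% over all genes tested. The groups were formed after the values were seen, so their counts are given without a test and nothing is read from them. Of the 20 immune cell genes 6 were called lower, which were MMP9, MFAP4 ENSDARG00000088745, lygl1, ctss2.2, ccl19b and cyba, some of them named only after their values were seen. MMP9 fell by 1.00 ± 0.16 (SE, limma, adjusted p = 0.00136). In the group of interferon and NF-kB genes 2 of 10 were called lower: gbp2 fell by 0.77 ± 0.15 (limma, adjusted p = 0.00765) and STAT4 by 0.56 ± 0.08 (limma, adjusted p = 0.00103). Lower calls were also made for 2 of 7 redox genes, 1 of 9 glucose and lipid genes and 1 of 13 ion transport genes, which was RHCG ENSDARG00000007080, and for 0 of 19 surface epithelium genes.

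Since the mutants and WT larvae can also differ in sequence linked to klf9, positions were looked up by symbol in RefSeq (assembly GRCz12tu), which placed 186 of the 242 genes. Of these, 14 (7.53%) were on chromosome 5, which carries klf9, against 5.84% of 12945 placed genes of the same minimum level, and 0 were within 50 genes of klf9. anxa1b was on chromosome 5, and so were 2 of the 25 placed genes that were lower in klf9-/- larvae. The part of linked sequence in these differences was not tested.

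Finally, the preparation days were compared. The rule did not use this difference either, but the test again shares the spread that the rule favoured to be small. Its counts are thus not like for like with all genes. Averaged over the conditions, all 242 genes were lower on day 2 than on day 1, where 53.4% of all genes tested were. Of the 242, 238 passed limma's test, where 32.7% of all genes were called lower. Of all genes 30.3% were called higher, but 0 of the 242. The 4 that did not pass, named after their values were seen, were si:dkey-30j22.1, cxcr3.2, krt98 and ST8SIA4. The median over the 242 genes was -0.79 (-1.71 to -0.07), against -0.04 over all genes tested, and in 148 genes the fall was larger than the cortisol difference of either genotype. The median was -0.74 in klf9-/- larvae with cortisol and -0.73 with vehicle, and -1.07 in WT larvae with cortisol and -0.62 with vehicle. In these conditions 242, 241, 242 and 231 of the genes were lower on day 2, in the same order. Shares over all genes by condition are not given here.

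BARX2 had the largest fall, by 1.71 ± 0.22 (SE, limma, adjusted p = 9.9e-06), with 59 and 28 normalized counts in klf9-/- larvae with cortisol on day 2, against 66 and 72 on day 1. With vehicle it had 16 and 9 in klf9-/- larvae on day 2, against 55 and 52 on day 1. tppp fell by 1.49 ± 0.15 (adjusted p = 1.5e-06, limma). The fall was also found in genes of all 9 function groups, whose medians ran from -0.91 in surface epithelium to -0.69 in lysosomal hydrolases.

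The same relation held beyond the 242 genes. Of the 18569 genes at or above the minimum level of 20, 11 had the same value in every sample and were not tested. Across the other 18558, the mean cortisol difference and the day difference had a Pearson r of -0.82 and a Spearman rho of -0.85. This is a description across genes, which are not independent replicates and share the 16 samples. Of 737 genes with a difference of at least 0.4 in both genotypes, whether or not their samples were separated within days, 732 were lower on day 2. Of the 495 among them outside the 242, it was 490. Of all 21468 genes tested, 53.4% were lower on day 2. Marker lists also moved with the day. Of 34 synaptic genes tested, all 34 were called higher on day 2, with a median of 0.84, and 0 were among the 242, while 26 of 27 macrophage and 23 of 27 epidermis markers were called lower on day 2. Replicates 3 and 4 were also collected later than replicates 1 and 2. Order of collection, order of lysis, the handling on each day and the makeup of the samples cannot be told apart, and their part in the cortisol differences was not tested.

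**Figure D5:**
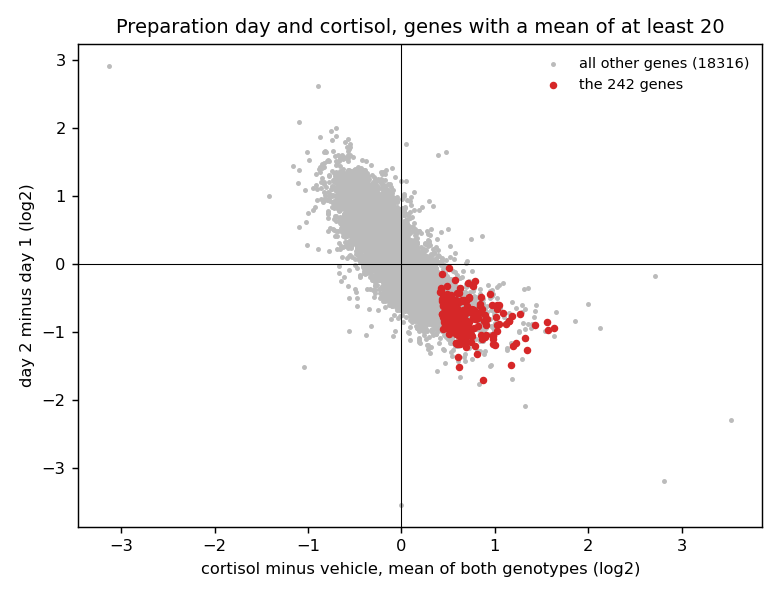
Log2 difference between day 2 and day 1 (vertical axis) against the mean log2 difference between cortisol and vehicle in both genotypes (horizontal axis) for the tested genes at or above the minimum level of 20 normalized counts, with the 242 genes in red. All 242 lie below 0 on the vertical axis, between -1.71 and -0.07.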

How the data were processed

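Single-end RNA-seq of 16 samples was used. The authors trimmed reads with Trimmomatic 0.38, aligned them with STAR 2.6.1b to GRCz11, estimated gene counts with RSEM 1.3.0, normalized them with EDASeq for GC content within samples and by full quantiles between samples, and deposited log2 values of the normalized counts plus 0.1. The level of 20 was applied to values that include the added 0.1. Whether the counting used strand is not given in the sources used here. On the count scale 100% of the values were whole (tolerance 0.01), and each sample summed to 14653434, so depth is unknown and errors come from replicates alone. This normalization sets every sample to the same distribution and hides any change in total RNA. The authors' own test was DESeq2 1.24.0, run after the EDASeq normalization. It was not used here, and limma on the deposited log2 values took its place.

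Here, limma 3.58.1 (R 4.3.3, eBayes with trend) was fitted to the 21468 genes that averaged 5 or more normalized counts. The model held 4 condition means plus a term for preparation day, with Benjamini-Hochberg adjustment over all of them at 0.05. Contrasts were cortisol against vehicle in each genotype, their difference, klf9-/- against WT over both treatments, and day 2 against day 1. Differences and their SE are on the log2(normalized count + 0.1) scale. The script was tested on simulated data. Alternatives are given in the closing section. Tables and figures used Python 3.11.15, pandas 2.3.3, numpy 2.4.6 and matplotlib 3.10.9.

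The 242 genes and all gene lists were chosen with earlier results of these data known. Lists were matched by symbol, synonym or root, so paralogs are uncertain. Genes named singly were the 12 with the largest mean cortisol difference, those on the glucocorticoid target list, up to 3 in each direction for each genotype contrast, up to 3 for each other list, and 3 on either side of the limit. Function groups, and the further genes named as their members, were chosen after the values were seen.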

Additional observations from a re-analysis of the deposited data

Results flagged for a closer look

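For 4 of the 242 genes the cortisol difference passed limma's test of a difference between the genotypes. That contrast is built from the differences that chose the genes, so the values are given as a description only. The klf9-/- difference minus the WT difference was -1.85 for si:dkey-97i18.5, -1.99 for olfm4l2, -1.98 for olmf4l1 and -1.68 for MFAP4 ENSDARG00000088745. Of 152 groups of 4 samples looked at among the named genes, 1 held a sample that stood apart. There olmf4l1 had 87 normalized counts in WT vehicle replicate 2, where the other 3 samples of that condition had 33 to 42. The limit used flags about 1 group in 20 by chance for draws from a single normal distribution. These groups mix 2 preparation days, so that rate does not apply to them.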

How the results depend on the processing

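The rule found 384 genes with a limit of 0.3, 134 with 0.5, 737 from the means alone, and 147 to 400 with each sample left out, which also loosens the demand for separation. Of the members, the number called higher with cortisol in klf9-/- larvae was 223 with each condition given its own mean per day, 41 with eBayes without a trend, 0 without preparation day, 38 on day 2 alone and 42 on day 1 alone, and 0 to 208 with each sample left out. In WT larvae it was 7 without preparation day, 30 on day 2 alone, and 73 to 224 with each sample left out. For a smaller cortisol difference in klf9-/- larvae it was 2 without a trend, 0 without preparation day, 0 on day 2 alone, 1 on day 1 alone, and 2 to 6 with each sample left out. For genes lower in klf9-/- larvae over both treatments it was 2 without preparation day, 18 on day 2 alone, 20 on day 1 alone, and 25 to 56 with each sample left out, and for genes higher 0 without preparation day, 1 on day 1 alone, and 2 to 4 with each sample left out. Fits to 1 day hold fewer samples and those without preparation day leave the day in the error. For the other changes the cause was not tested. Shares over all genes are not set beside these counts, so they describe the members only. Between 236 and 239 members were lower on day 2 with each sample left out. A minimum mean of 75, no minimum, 10 counts added and samples centred on their medians changed no such count by over 1.5 times. Among 3306 comparisons of single values of named genes, 0 changed sign, 102 no longer passed, and 61 moved beyond a limit set from their SE. The rule had largely fixed the sign of the cortisol differences, and other contrasts were compared only where they had passed. Nothing is therefore read from the lack of sign changes.

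Same-numbered samples of different conditions deviated together from their condition means (median r of 0.46 over 24 pairs, lowest -0.06), but not beyond the day (-0.10 to 0.10), so the numbers share no more than the day. With the replicate block in place of the day, 86 members were called higher with cortisol in klf9-/- larvae and 192 in WT larvae, 3 had a smaller cortisol difference in klf9-/- larvae, and 30 were lower and 3 higher in klf9-/- larvae over both treatments. Shares over all genes in that fit are not set beside these counts, and the cortisol counts rest on the differences that chose the genes. Nothing particular to the members is read from them. The normalized values carry no depth, so no counting error could be given. The planned search of promoters for motifs was not run, since no promoter sequences were used here.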
